A study of Mus musculus with 6 samples.

Results

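YAP and TAZ, the proteins of Yap1 and Wwtr1, together with the transcription factors TEAD1 to TEAD4, are the nuclear effectors of the Hippo pathway, and Ccn1, Ccn2, Amotl2 and Lats2 are target genes through which their activity is commonly read. These 10 genes were chosen by name, 6 effectors and 4 target genes, and were found by matching the Ensembl identifiers of the deposited counts to GENCODE mouse gene names. All 10 were present among the 55416 genes listed, and all 10 were among the 15746 genes that passed a filter on low counts and were tested.

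RNA-seq was performed on epiblast-like cells (EpiLCs), the formative cells that mouse embryonic stem cells (mESCs) give rise to on leaving the naïve state, to ask what the loss of the transcription factor Oct6 (gene Pou3f1) changes at that step. There were 3 WT and 3 Oct6 KO libraries, prepared by a stranded protocol from total RNA. Each held between 10995505 and 14680930 counts. WT cells were the 46C line, which carries a GFP reporter of the neural gene Sox1, and KO cells were 1 clone made from that line with CRISPR/Cas9, homozygous for an insertion in the Oct6 coding sequence, so that genotype and clone cannot be told apart. Both were moved from 2i and LIF to N2B27 medium on fibronectin for 48 h with 1% KSR (a serum replacement), bFGF and Activin A. The growth factor doses were 12 (bFGF) and 20 (Activin A), in ng/ml by the sample labels and in µg/ml by the design text. Levels are given as CPM, counts scaled to the TMM-normalized library size, and 3 values of a genotype always stand in the order of replicates 1, 2 and 3. Differences between genotypes are log2 fold changes of KO against WT from edgeR's quasi-likelihood fit over all genes tested, with the standard error (SE) and the p-value adjusted by the Benjamini-Hochberg method.

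Pou3f1 itself (ENSMUSG00000090125.4, chromosome 4) had 161, 142 and 122 CPM in the WT libraries and 127, 141 and 128 in the KO libraries. The genotypes overlapped, with a log2 fold change of −0.10 (SE 0.11, edgeR adjusted p = 0.574). An insertion need not lower the transcript, so that this level does not check the labels. Epiblast genes were abundant in both groups. Pou5f1, which encodes OCT4, had means of 896 ± 59.9 CPM in WT and 785 ± 36.9 CPM in KO EpiLCs (SD, n = 3). Fgf5, a marker of the formative epiblast, had 58.8, 68.6 and 80.8 CPM in the WT libraries and 115, 107 and 105 in the KO libraries.

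In the Hippo pathway, the kinases MST1 (Stk4) and MST2 (Stk3) activate LATS1 and LATS2, which phosphorylate YAP and TAZ so that these are held in the cytoplasm by 14-3-3 proteins or degraded. Unphosphorylated YAP and TAZ enter the nucleus and, having no DNA-binding domain, act through TEAD proteins, while VGLL4 competes with them for TEAD. In the early mouse embryo YAP, TAZ and TEAD4 direct the outer cells to trophectoderm, and in the epiblast YAP and TEAD support pluripotency genes. Much of this control acts on protein phosphorylation and location, which transcript counts do not measure.

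TEAD proteins bind the hexamer GGAATG, or CATTCC on the other strand. Promoters were taken from the RefSeq table of build GRCm38.p6, which holds 7 of the 10 genes, and each window was placed on GRCm39 by an exact match that occurred at 1 position of its chromosome. Tead1, Tead4 and Ccn2 are not in it. In the 250 bases before an annotated start, 5 of these 7 genes had the hexamer in at least 1 window, against 14.4% of the 27025 genes and 12.6% of the 32851 windows in the table. Yap1, Ccn1 and Amotl2 had a single match, both windows of Wwtr1 held the same match, and of 3 windows of Tead3 1 held a pair of matches, 1 a single match and 1 none. None of the windows of Tead2 and Lats2 held these letters. A match describes the letters and is not a measured binding site. The stretches before Wwtr1 and Ccn1 are shown because both transcripts were lower in KO cells, and that before Yap1 because its transcript was not. They are written 5′ to 3′ on the minus strand, on which all 3 genes lie, with the hexamer in capitals. That of Wwtr1 is chr3:57483332-57483581, with the hexamer starting at −136 from the start of the transcript. It borders the annotated first exon and overlaps an exon of the lncRNA Gm65379. That of Ccn1 is chr3:145355741-145355990, with the hexamer at −103, and overlaps an exon of the antisense lncRNA Gm17501. That of Yap1 is chr9:8004662-8004847, the 186 bases of the window that GENCODE places outside the gene. The whole window overlaps an exon of the lncRNA Gm45494. The hexamer of Yap1 is at −141 from the RefSeq start, which lies 64 bases inside the GENCODE gene, and at −77 from the end of the stretch shown. In Amotl2 the hexamer was at −65, within an annotated exon of other Amotl2 transcripts.
Wwtr1: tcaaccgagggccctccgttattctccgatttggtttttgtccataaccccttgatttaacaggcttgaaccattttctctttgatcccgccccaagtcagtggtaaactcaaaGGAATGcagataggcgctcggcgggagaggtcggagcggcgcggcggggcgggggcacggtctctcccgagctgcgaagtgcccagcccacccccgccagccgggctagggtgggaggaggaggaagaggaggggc
Ccn1: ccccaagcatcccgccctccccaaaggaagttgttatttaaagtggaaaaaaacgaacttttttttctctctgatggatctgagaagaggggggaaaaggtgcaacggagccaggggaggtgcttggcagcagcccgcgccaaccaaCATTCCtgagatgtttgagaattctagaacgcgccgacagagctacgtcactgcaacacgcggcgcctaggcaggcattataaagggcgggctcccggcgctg
Yap1: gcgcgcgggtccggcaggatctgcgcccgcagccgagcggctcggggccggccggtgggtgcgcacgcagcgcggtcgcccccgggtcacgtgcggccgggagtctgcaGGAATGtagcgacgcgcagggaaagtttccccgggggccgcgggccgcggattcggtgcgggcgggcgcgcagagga

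Of the 10 genes, 4 were lower in KO EpiLCs and 0 were higher at an adjusted p below 0.1 in edgeR's quasi-likelihood test. The lower genes were the effectors Wwtr1 and Tead4 and the target genes Ccn1 and Amotl2. Over all genes tested 24.3% passed at this threshold, 11.8% higher and 12.5% lower in KO cells. At an unadjusted p below 0.05 the same test gave 1 higher and 5 lower, against 29.8% of all genes tested, 14.5% higher and 15.2% lower. DESeq2 gave 0 higher and 4 lower at an adjusted p below 0.1, which 19.4% of its 17005 genes passed. With so few genes, these counts beside their backgrounds are not read as particular to them. Where genotypes are said not to overlap, the share of all genes tested without overlap is not given. Such statements describe the libraries and are not read as particular to a gene. The median log2 fold change was −0.24 over the 10 genes, −0.11 over the effectors and −0.30 over the target genes, against 0.0014 over all genes tested. Leaving out KO replicate 2 reduced the genes called to 2, Wwtr1 and Tead2, and these too were lower (19.4% of all genes tested passed). With the replicate number as a block, 6 genes passed, 5 lower and 1 higher, the additions being Tead2 and Lats2, while 30.3% of all genes tested passed. In whole cultures, fewer cells that express a gene and less RNA of it per cell cannot be told apart.

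**Figure D1:**
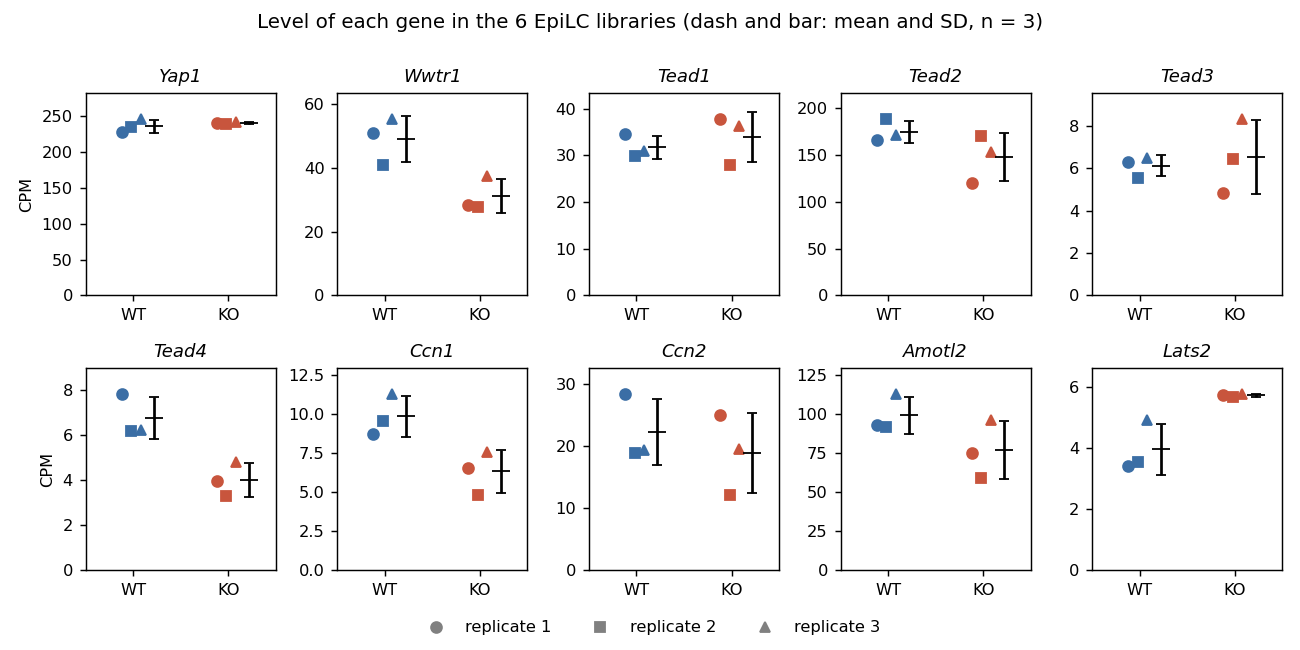
CPM of each gene in the 3 WT (blue) and 3 KO (red) libraries, with circles, squares and triangles for replicates 1, 2 and 3 and a dash and bar for the mean and SD (n = 3). Every axis starts at 0. The genotypes do not overlap for Wwtr1, Tead4, Ccn1 and Lats2, and Yap1 lies between 228 and 246 CPM in all 6 libraries. The share of all genes tested without overlap is not given here.

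Yap1 (ENSMUSG00000053110.14, chromosome 9 of GRCm39, 7932000 to 8004661, minus strand) encodes YAP, the coactivator that LATS kinases hold in check. Its level was 228, 235 and 246 CPM in the WT libraries and 241, 239 and 242 in the KO libraries (means 236 ± 9.02 and 241 ± 1.52, SD, n = 3). All KO libraries lay within the range of the WT libraries. The log2 fold change was 0.03 (95% interval −0.16 to 0.22, edgeR adjusted p = 0.877).

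Wwtr1 (ENSMUSG00000027803.15, chromosome 3 of GRCm39, 57363067 to 57483331, minus strand) encodes TAZ, the paralog of YAP. Its level was 51.1, 41.1 and 55.3 CPM in the WT libraries and 28.3, 27.9 and 37.5 in the KO libraries. Every KO library was below every WT library, and replicate 3 was the highest of each genotype. The mean fell from 49.2 ± 7.33 to 31.2 ± 5.45 CPM (SD, n = 3), a log2 fold change of −0.66 (SE 0.14, 95% interval −0.95 to −0.37, edgeR adjusted p = 0.00211). Wwtr1 passed the test under each of the 13 alternatives tried.

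Many genes beside Wwtr1 on chromosome 3 were lower as well. Within 5 Mb of it 48 other genes were tested, of which 40 had a log2 fold change below 0, 22 were called lower and 1 was called higher. Their median log2 fold change was −0.47, and taken within replicate pairs 1, 2 and 3 it was −0.40, −0.38 and −0.50. The log2 fold change of Wwtr1 minus that median was −0.18, and 11 of the 48 neighbours had a lower log2 fold change than Wwtr1. Measured against the mean log2 CPM of its neighbours in the same library, Wwtr1 differed between genotypes by −0.26 on the log2 scale (exact permutation p = 0.2, two-sided, the smallest possible value for 3 against 3 being 0.1). The median over the whole of chromosome 3 was −0.03. The part of these neighbours' shared shift in the result for Wwtr1 was not tested.

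**Figure D2:**
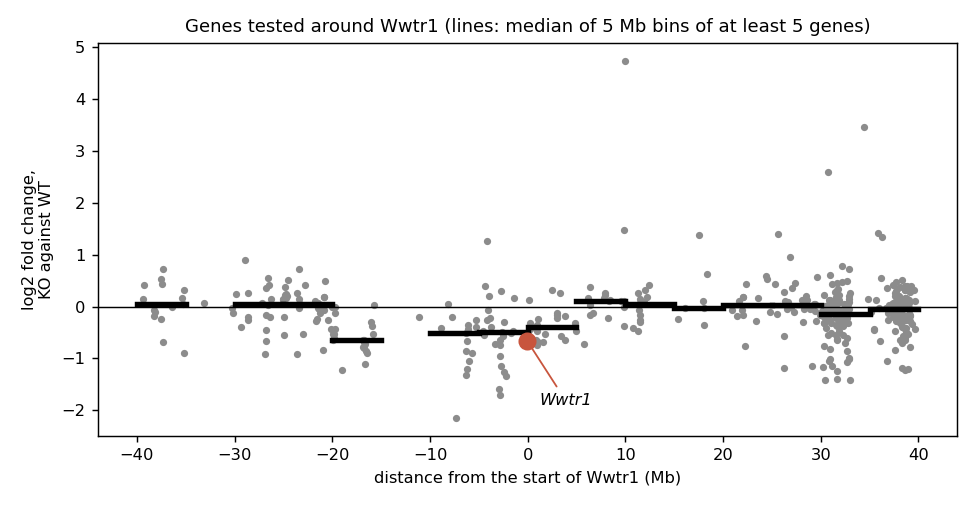
Log2 fold change (KO against WT) of each gene tested within 40 Mb of the start of Wwtr1 (red) against its distance from that start in Mb. Negative distances are lower chromosome coordinates, which lie downstream of the start because Wwtr1 is on the minus strand. Black lines are medians of 5 Mb bins with at least 5 genes. They lie at −0.51, −0.50 and −0.39 from −10 to 5 Mb and at −0.64 from −20 to −15 Mb. In the other bins shown they lie between −0.15 and 0.11.

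The balance of the YAP and TAZ transcripts was read from their ratio. The log2 ratio of Yap1 to Wwtr1, both as CPM per kb of exon, was 2.50, 2.85 and 2.49 in the WT libraries and 3.43, 3.44 and 3.03 in the KO libraries. The ratio was higher in every KO library than in any WT library. The means differed by 0.69 on the log2 scale (exact permutation p = 0.1, two-sided, which is the smallest p that 3 against 3 can give). With Yap1 at a log2 fold change of 0.03, this difference is mostly that of Wwtr1 (−0.66). Genes within 5 Mb of Wwtr1 had a median of −0.47. On the linear scale Yap1 was 6.11 times the level of Wwtr1 in WT EpiLCs and 9.84 times in KO EpiLCs, as geometric means. The ratio depends on the exon length used, and with the longest transcript of each gene its mean log2 was 2.11 in WT and 2.79 in KO EpiLCs, with the same difference of 0.69.

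Among the TEAD genes, which encode the DNA-binding partners, Tead2 had the highest level per length. Its level was 165, 188 and 170 CPM in the WT libraries and 119, 170 and 153 in the KO libraries. KO replicate 1 was the lowest of the 6 libraries, and KO replicate 2 lay within the WT range. The log2 fold change was −0.24 (SE 0.12, edgeR adjusted p = 0.166), with KO lower in each of the 3 replicate pairs. With the replicate number as a block it was −0.26 (SE 0.089, edgeR adjusted p = 0.0342), past the threshold, and without KO replicate 2 it was −0.36 (edgeR adjusted p = 0.0615). Without KO replicate 1 it shrank to −0.12 (edgeR adjusted p = 0.586).

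Tead4 (ENSMUSG00000030353.16, chromosome 6 of GRCm39, 128201251 to 128277786, minus strand), the TEAD gene that trophectoderm formation requires, had 7.82, 6.19 and 6.21 CPM in the WT libraries and 3.96, 3.31 and 4.80 in the KO libraries. The genotypes did not overlap. The mean fell from 6.74 ± 0.934 to 4.02 ± 0.748 CPM (SD, n = 3), a log2 fold change of −0.74 (SE 0.23, 95% interval −1.22 to −0.27, edgeR adjusted p = 0.0256). Between 43 and 105 counts per library stood behind these levels. Without KO replicate 2 the call was lost (log2 fold change −0.62, edgeR adjusted p = 0.113). Chromosome 6 as a whole had a median log2 fold change of −0.40, but the 72 genes tested within 5 Mb of Tead4 had a median of −0.08, with 48 below 0, 9 called lower and 5 called higher. Against the mean log2 CPM of the 72 neighbours, Tead4 differed by −0.67 (exact permutation p = 0.1, the smallest possible). Yap1 (−0.23) and Lats2 (0.68) reached the same p against their own neighbours within 5 Mb. The p was not adjusted over the genes, so that it does not set Tead4 apart.

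Tead1 had between 27.9 and 37.8 CPM and Tead3 between 4.85 and 8.33 CPM over the 6 libraries. For both, the highest library and the lowest were KO libraries. Their log2 fold changes were each 0.10, with adjusted p = 0.676 for Tead1 and 0.819 for Tead3 in edgeR's test. The interval of the difference ran from −0.18 to 0.37 for Tead1 and from −0.37 to 0.56 for Tead3. With single libraries left out, the log2 fold change of Tead1 ran from 0.02 to 0.22. That of Tead3 was 0.27 without KO replicate 1 and turned to −0.11 without KO replicate 3.

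Set against exon length, Tead2 made up 87.9 ± 1.55% of the summed TEAD level in WT EpiLCs and 86.4 ± 2.94% in KO EpiLCs (SD, n = 3). The summed level itself was 35.0, 38.4 and 35.5 CPM per kb in the WT libraries and 26.0, 34.6 and 32.6 in the KO libraries, without overlap (exact permutation p = 0.1, the smallest possible). The share of Tead4 was 3.68, 2.66 and 2.89% in the WT libraries and 2.51, 1.58 and 2.43% in the KO libraries. The share of Tead3 was 2.69, 2.16 and 2.72% in the WT libraries and 2.78, 2.78 and 3.80% in the KO libraries. These shares did not overlap between genotypes either, and both had an exact permutation p of 0.1, or 0.2 after adjustment over the 4 genes. With single libraries left out, the KO minus WT difference in the share of Tead3, 0.597 percentage points over all libraries, ran from 0.256 (without KO replicate 3) to 0.769, and that of Tead4, −0.905, ran from −1.11 to −0.602 (without WT replicate 1). Shares of a sum are not independent of each other. The exact permutation p was 0.3 for Tead1 and 0.5 for Tead2.

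**Figure D3:**
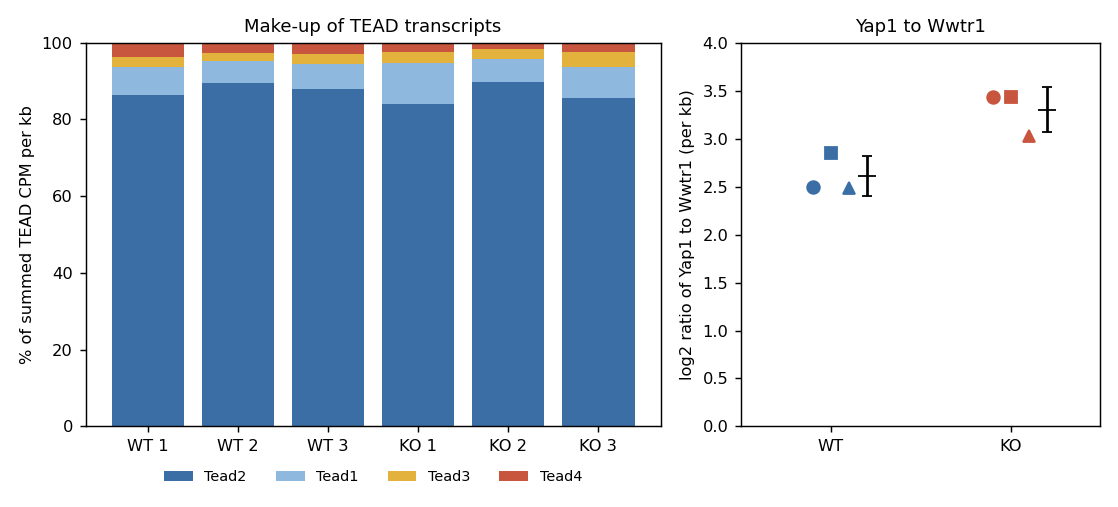
Left, share of each TEAD gene in the summed TEAD level of each library (% of CPM per kb of exon); right, log2 ratio of Yap1 to Wwtr1 per kb with the mean and SD (n = 3; circles, squares and triangles are replicates 1, 2 and 3). Tead2 makes up between 84.0 and 89.7% in every library, and the ratio is higher in all 3 KO libraries than in the WT libraries.

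Ccn1 (ENSMUSG00000028195.5, chromosome 3 of GRCm39, 145352720 to 145355738, minus strand) encodes the secreted matrix protein CYR61, an immediate target of YAP and TEAD. It had 8.71, 9.56 and 11.3 CPM in the WT libraries and 6.55, 4.85 and 7.58 in the KO libraries. The genotypes did not overlap, and KO replicate 2 was the lowest library. The mean fell from 9.85 ± 1.30 to 6.33 ± 1.38 CPM (SD, n = 3), a log2 fold change of −0.64 (SE 0.20, 95% interval −1.06 to −0.21, edgeR adjusted p = 0.0325). The call was lost without KO replicate 2 (−0.48, adjusted p = 0.157) or without WT replicate 3 (−0.53, adjusted p = 0.134, both from edgeR). Although Ccn1 is on the same chromosome as Wwtr1, the 42 genes tested within 5 Mb of it had a median log2 fold change of 0.05. The log2 fold change of Ccn1 minus that median was −0.69. Against the mean log2 CPM of these neighbours, which a few with large increases such as Clca3a2 (log2 fold change 3.46) raise, Ccn1 differed by −0.85 (exact permutation p = 0.1, the smallest possible). As for Tead4, this unadjusted p was also reached by Yap1 and Lats2 and does not set Ccn1 apart.

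Amotl2 (ENSMUSG00000032531.16, chromosome 9 of GRCm39, 102593836 to 102610617, plus strand) encodes an angiomotin, which binds YAP at cell junctions, so that the target gene is also a negative regulator. It had 92.9, 91.8 and 113 CPM in the WT libraries and 75.3, 59.1 and 96.2 in the KO libraries. KO was lower within each of the 3 replicate pairs, but KO replicate 3 was above WT replicates 1 and 2. The mean fell from 99.2 ± 11.8 to 76.9 ± 18.6 CPM (SD, n = 3), a log2 fold change of −0.37 (SE 0.14, 95% interval −0.66 to −0.08, edgeR adjusted p = 0.0732). The adjusted p was 0.354 without KO replicate 2 (log2 fold change −0.21), 0.257 without WT replicate 3 (−0.27) and 0.175 without KO replicate 1 (−0.35), all from edgeR, and none of these passes the threshold.

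Ccn2, which encodes the connective tissue growth factor and is a relative of Ccn1, had 28.4, 18.9 and 19.4 CPM in the WT libraries and 25.1, 12.2 and 19.7 in the KO libraries. The genotypes overlapped, replicate 1 being the highest of each and KO replicate 2 the lowest of all. The log2 fold change was −0.24 (SE 0.21, 95% interval −0.67 to 0.20, edgeR adjusted p = 0.492). It depended on single libraries, being 0.00 without KO replicate 2, −0.02 without WT replicate 1 and −0.49 without KO replicate 1, and passed in none of these fits. An lncRNA on the opposite strand, Gm15270, had 34 counts over the 6 libraries against 1608 of Ccn2.

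Lats2 (ENSMUSG00000021959.17, chromosome 14 of GRCm39, 57926960 to 57995845, minus strand), a kinase through which YAP limits its own activity, was the target gene with higher levels in the KO libraries. It had 3.42, 3.55 and 4.93 CPM in the WT libraries and 5.74, 5.70 and 5.78 in the KO libraries, on 39 to 77 counts per library. The KO libraries all lay above the WT libraries. The log2 fold change was 0.52 (SE 0.23, 95% interval 0.04 to 1.00), which did not pass over all genes (edgeR adjusted p = 0.129). With the replicate number as a block it was 0.54 (edgeR adjusted p = 0.0767), past the threshold, and without WT replicate 3 it was 0.72 (edgeR adjusted p = 0.0674).

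**Figure D4:**
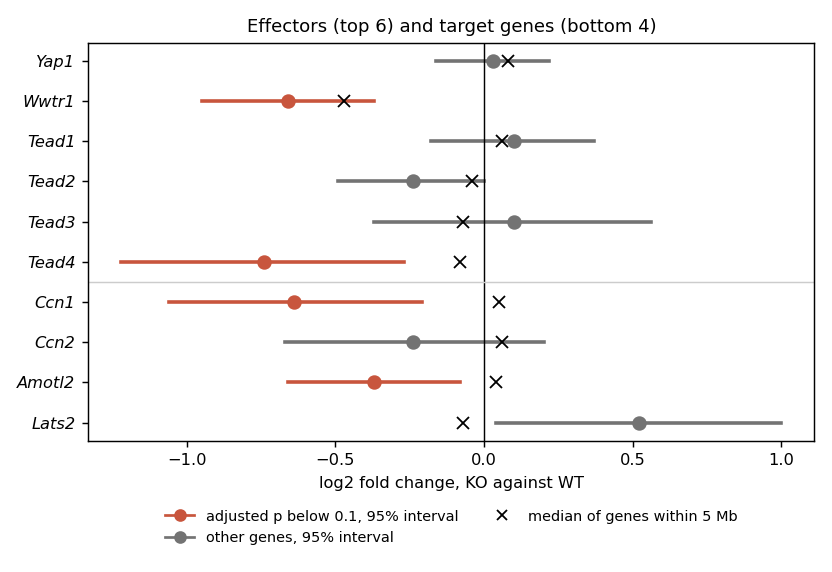
Log2 fold change (KO against WT) of the 6 effectors and 4 target genes with 95% intervals (n = 3 per genotype), in red where the adjusted p is below 0.1; crosses are the median log2 fold change of the other genes tested within 5 Mb. Wwtr1 (−0.66) lies beside a neighbour median of −0.47, while the neighbour medians of the other 9 genes lie between −0.08 and 0.08.

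Ccn1, Ccn2, Amotl2, Wwtr1, Tead1 and Tead4, of which Ccn2 and Tead1 were not called, all had their lowest level in KO replicate 2, the library with the lowest TMM factor (0.974, against 0.992 to 1.02 in the others). Markers of other cell types were read in the same libraries, in which 24.3% of all genes tested passed, or 30.3% with the replicate number as a block. Of 7 fibroblast markers 3 were tested and 1, Thy1, was lower in KO cells (log2 fold change −1.22). With the replicate number as a block all 3 were lower, Dcn (−0.57, edgeR adjusted p = 0.0335) and Col1a2 (−0.74, edgeR adjusted p = 0.0651) being the additions. Without the block Dcn had −0.58 (edgeR adjusted p = 0.216), which depended on the libraries kept: it passed without WT replicate 2 (adjusted p = 0.0868) or KO replicate 1 (0.0373) and with no filter (0.0748), but fell to −0.15 (adjusted p = 0.798) without WT replicate 1, −0.44 (0.439) without KO replicate 2 and −0.36 (0.540) without KO replicate 3, all from edgeR. Col1a2 had −0.78 without the block (edgeR adjusted p = 0.172) and passed without WT replicate 2 or KO replicate 1. It is on chromosome 6, where the genes within 5 Mb of it had a median of −0.44. The summed level of the 7 fibroblast markers was 20.1, 11.2 and 12.6 CPM in the WT libraries and 12.5, 7.39 and 7.43 in the KO libraries, Dcn being the most abundant per length, while Postn had a count in WT replicate 2 alone. Col1a1 and Col3a1 had at most 9 counts per library and Lum at most 4. Of 6 primitive endoderm markers 4 were tested and 2 were higher, Gata6 (1.35) and Pdgfra (0.94). Their summed level was 8.41, 6.37 and 7.02 CPM in the WT libraries and 14.1, 6.54 and 18.3 in the KO libraries, Dab2 being the most abundant per length in WT EpiLCs. Gata6 did not pass without KO replicate 3 (1.02), and Pdgfra (edgeR adjusted p = 0.0991) did not pass with DESeq2 (0.96), with library totals alone (0.92), or without WT replicate 2 (0.63) or 3 (1.12) or KO replicate 1 (0.71) or 3 (0.80). Whether such cells were present, and any part of them in the levels of the target genes, was not tested.

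Trophectoderm markers bear on Tead4 and were near 0, except for Eomes. Elf5 had at most 4 counts per library, Gata3 at most 3, Hand1 at most 2 and Tfap2a at most 6. Eomes, which formative and primitive streak cells also express, was higher in KO cells (log2 fold change 0.87, from a mean of 5.41 to 9.92 CPM). The 6 markers summed to 7.30, 6.10 and 5.74 CPM in the WT libraries and 10.5, 8.70 and 12.2 in the KO libraries, most of it Eomes. The other 5 summed to 1.49, 0.728 and 0.675 CPM in the WT libraries and 0.242, 0.462 and 0.900 in the KO libraries, which overlapped. Cdx2, with 7, 5 and 3 counts in the WT libraries and 2, 0 and 1 in the KO libraries, was below every WT library in each KO library but too low to be tested. Epiblast markers differed as well. Otx2 (0.92), Fgf5 (0.65) and Sox2 (0.42) were higher in KO cells, while Pou5f1 (−0.19), Dnmt3b (−0.19) and Utf1 (−0.01) did not pass. Sox2 did not pass without WT replicate 1 (0.35) or KO replicate 3 (0.27), while Pou5f1 and Dnmt3b were called lower with the replicate block (edgeR adjusted p = 0.0665 and 0.0550) and without WT replicate 3 (−0.25 and −0.26). The part of these marker differences in the levels of the effectors was not tested.

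Per kb of exon, the levels in WT EpiLCs ran from Tead2 (31.9 CPM per kb) and Yap1 (25.2) over Amotl2 (14.1), Ccn2 (6.99), Ccn1 (4.85), Wwtr1 (4.15) and Tead1 (2.34) to Tead4 (1.11), Tead3 (0.912) and Lats2 (0.378). The libraries of Ccn1 and Wwtr1 overlapped, and those of all other neighbours in this order did not. In KO EpiLCs, Tead2 (26.9) and Yap1 (25.7) overlapped, as did Ccn1 (3.11) with Wwtr1 (2.64), Wwtr1 with Tead1 (2.51), Tead3 (0.975) with Tead4 (0.663), and Tead4 with Lats2 (0.547). In WT EpiLCs Wwtr1 was 1.78 times the level of Tead1, and in KO EpiLCs 1.05 times. With the longest transcript as the length it was 3.29 and 1.95 times, without overlap in either genotype, so that how near Wwtr1 came to Tead1 depends on the length used. By that length Wwtr1 also stood above Ccn2 and Ccn1, and Tead3 above Tead4, in WT EpiLCs, where the libraries of Wwtr1 and Ccn2 overlapped. In KO EpiLCs Yap1 stood above Tead2, Wwtr1 and Tead1 above Ccn1, and Lats2 above Tead4. Here Yap1 overlapped with Tead2, and Tead1 with Ccn1.

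Tead4 and Ccn1 had the largest absolute log2 fold changes among the effectors and among the target genes called, and the genes with the most similar pattern over the 6 libraries were sought for each among 13077 genes. Closest to Tead4 were Tmtc1, Gpa33 and Sfxn5, each with a root-mean-square difference of 0.07 in centred log2 CPM. Tmtc1 and Sfxn5 are on chromosome 6, as Tead4 is. Closest to Ccn1 were Eeig2 (0.07), Gm43328 (0.07) and Atp2a3 (0.08), of which Eeig2 and Gm43328 are on chromosome 3, as Ccn1 is. The likeness holds the difference between genotypes as well as that between replicates.

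Upstream of YAP and TAZ, all 13 genes of the kinase core were tested, with a median log2 fold change of −0.08. In KO cells 4 were lower and 1 was higher, against 12.5% and 11.8% of all genes tested. Taok3, a kinase that activates MST1 and MST2, was lower (−0.62), as were Wwc2, a scaffold of LATS (−0.49), Mob1a, the LATS coactivator and most abundant gene of the list per length (−0.36), and Sav1, the scaffold of MST (−0.33). Mob1b, the paralog of Mob1a, was higher (0.61). Mob1a is on chromosome 6, where the genes within 5 Mb of it had a median of −0.54. Its level fell from 266 ± 9.60 to 208 ± 15.5 CPM and that of Mob1b rose from 23.6 ± 5.98 to 36.2 ± 1.75 CPM (SD, n = 3). The kinases Stk3 (−0.11), Stk4 (−0.08) and Lats1 (0.00) did not pass. The call of Sav1 was lost with no filter on low counts (−0.33) or without WT replicate 2 (−0.30) or 3 (−0.30) or KO replicate 1 (−0.29), 2 (−0.35) or 3 (−0.34), and that of Taok3 without WT replicate 1 (−0.52) or KO replicate 3 (−0.60).

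Of 10 junctional and scaffold proteins that bind YAP or LATS or act above them, 9 were tested. Their median log2 fold change was 0.05. Of the 9, 2 were lower and 1 was higher, against 12.5% and 11.8% of all genes tested. Amot, the X-linked angiomotin, had the largest log2 fold change of the pathway genes listed, 1.44 (SE 0.27, edgeR adjusted p = 8.6e-04). It had 17.8, 11.3 and 18.6 CPM in the WT libraries and 67.0, 21.3 and 42.0 in the KO libraries. The genotypes did not overlap, and the KO libraries were spread widely. Its relative Amotl1 was lower (−0.32), as Amotl2 was, and so was Ajuba (−0.31), a LIM protein that restrains LATS and, per kb of merged exon in WT EpiLCs, the most abundant of this list (by the longest transcript, and in KO EpiLCs, that was Ctnna1). Amotl1 did not pass without WT replicate 1 (−0.28) or 3 (−0.28) or KO replicate 1 (−0.34) or 2 (−0.21), and Fat4, untested in the main fit, was called lower without WT replicate 3 (−1.33).

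Of 11 genes for 14-3-3 proteins and the degradation of YAP, 1 was lower, Sfn, which encodes 14-3-3 sigma (−0.93, from 30.9 ± 6.43 to 16.2 ± 4.30 CPM, SD, n = 3). With the replicate number as a block 2 were lower, the addition being Csnk1e (−0.27, edgeR adjusted p = 0.0730), a casein kinase. Of all genes tested 24.3% passed without the block, 12.5% of them lower, and 30.3% with it. The median of the list was −0.10, and its most abundant gene per length, Ywhaq, had 0.16 (edgeR adjusted p = 0.252). Of 4 VGLL cofactors of TEAD 3 were tested, and Vgll4 was lower (−0.49, from 12.6 ± 1.67 to 8.93 ± 0.494 CPM, SD, n = 3), while Vgll2 had a count of 0 in every library. Vgll4 did not pass without WT replicate 2 (−0.39) or KO replicate 2 (−0.49) or 3 (−0.45). It is on chromosome 6, and the genes within 5 Mb of it had a median of −0.04.

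Of 18 further target genes of YAP and TAZ, a signature derived from tumours, 13 were tested, with a median of −0.20. Of these 3 were lower and 2 were higher, against 12.5% and 11.8% of all genes tested. The lower genes of the list were Nt5e, an ectonucleotidase (−1.01), Igfbp3, which binds insulin-like growth factors (−0.80), and Gadd45a, a stress response gene and the most abundant of the list per length (−0.67). The higher genes were Fjx1, a kinase of the Golgi (0.74), and Crim1, a membrane protein that binds BMPs (0.46). Igfbp3 fell from 63.4 ± 4.22 to 36.5 ± 4.44 CPM (SD, n = 3), and the genes within 5 Mb of it had a median close to 0 (−0.00). Gadd45a is on chromosome 6, and its neighbours had a median of −0.47. Nt5e did not pass without WT replicate 1 (−0.75), and Crim1 did not pass with DESeq2 (0.46) or without WT replicate 1 (0.47) or 2 (0.36) or KO replicate 1 (0.48) or 3 (0.32), while Arhgef17 passed without KO replicate 3 (−0.38). Ankrd1, a strong target in many adherent cells, had at most 2 counts per library. The promoter table held 12 of these 18 genes, and 4 of them had the TEAD hexamer, against 14.4% of all genes in that table.

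**Figure D5:**
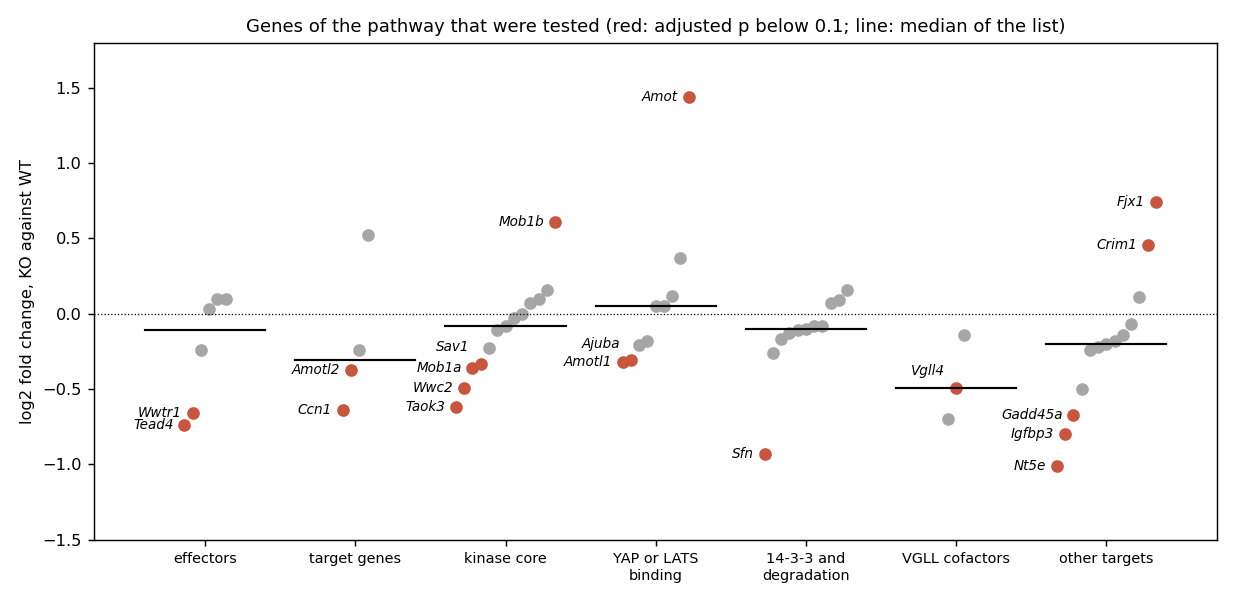
Log2 fold change (KO against WT) of every tested gene of the effectors, the target genes and the 5 lists of other pathway genes, each point being a gene; red points have an adjusted p below 0.1 and lines are the medians of the lists. The medians lie between −0.49 (3 VGLL cofactors) and 0.05 (9 YAP or LATS binding genes), and Amot (1.44) stands highest.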

How the data were processed

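The authors checked reads with FastQC, mapped them to GRCm39 with STAR and deposited raw counts per gene by Ensembl identifier, 1 column per library, without normalization. The annotation release, the strand setting of the counting and the handling of multi-mapping reads are not given in the sources used here. Of 55416 identifiers 54749 matched GENCODE M39, and the other 667 held 0.0602% of the counts. All 6 libraries, 3 WT and 3 KO, entered the fit.

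Counts were tested in R 4.3.3 with edgeR 4.0.16 (TMM, filterByExpr with a minimum count of 10, quasi-likelihood test, genotype as the only term, Benjamini-Hochberg adjustment over 15746 genes, threshold 0.1). The common dispersion was 0.0137, a biological coefficient of variation of 11.7%. Tables and figures were made with Python 3.11.15, pandas 2.3.3 and matplotlib 3.10.9. The steps were tested on simulated data. Ratios and shares were compared with exact two-sided permutation tests over libraries, on CPM per kb of merged exons. The log2 CPM of genes beside a member used a prior count of 2.

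All 10 members are named, with every gene of the other lists that had an adjusted p below 0.1 (at most 8 per list), the most abundant gene per length of each list, the 3 genes most like a member (mean of at least 1 log2 CPM), and Pou3f1. Other genes of the lists, the untested trophectoderm and fibroblast markers among them, were named after their values were seen. The members and lists were chosen with earlier results of these data known, and the comparison with neighbouring genes was added after the members' values were seen. The alternatives were DESeq2 1.42.0 in place of edgeR, RLE factors or plain library totals in place of TMM, a filter of 10 counts in all libraries or none, the replicate number as a block, a threshold of 0.05, and the omission of single libraries.

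The labels number the replicates of each genotype, and the study's methods state no pairing of these libraries. Deviations from the group means correlated by 0.276, 0.350 and 0.124 between libraries with the same number, over 11448 genes, which are not independent replicates. Between others they correlated by −0.263 to −0.0226, but removing group means makes these negative on average when the former are positive. The numbers were taken to pair the libraries. The main fit and the exact permutation tests over libraries do not use this pairing. With the replicate block 6 members passed, and paired sign changes gave an exact p of 0.25 to 0.5 for the ratio and the shares. Libraries of a genotype differed by more than sampling noise (chi-square per degree of freedom 6.94 to 11.9). The KO replicates come from 1 clone, so that p-values measure the spread between cultures and not between clones.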

Additional observations from a re-analysis of the deposited data

How the results depend on the processing

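Yap1, Wwtr1, Tead1, Tead3 and Ccn2 kept their side of the threshold under all 13 alternatives. The other members lost or gained a call only where stated here. With the replicate block Tead2 (log2 fold change −0.26) and Lats2 (0.54) passed, and 4764 genes were called in all, against 3833 without it, while the block changed no other member's call and no call of another listed gene beyond those stated. Amotl2 (−0.37, edgeR adjusted p = 0.0732) did not pass at an adjusted p below 0.05. DESeq2, the other scalings and the other filters changed no call of a member and gave 4 members lower. When single libraries were left out, the number of members called ran from 2 (without KO replicate 2) to 4, and the log2 fold change ran from −0.36 to −0.12 for Tead2, from −0.89 to −0.62 for Tead4, from −0.79 to −0.48 for Ccn1, from −0.56 to −0.21 for Amotl2 and from 0.42 to 0.72 for Lats2. For Wwtr1 it ran from −0.81 to −0.56, and for members never called from −0.49 to 0.00 for Ccn2, from 0.02 to 0.22 for Tead1, from 0.00 to 0.06 for Yap1 and from −0.11 to 0.27 for Tead3, whose sign turned. At an adjusted p below 0.05 the listed genes Sav1, Amotl1, Crim1 and Pdgfra did not pass either. The cause of the dependence on KO replicate 2 was not tested. Library totals alone moved the median log2 fold change of all genes from 0.0014 to −0.02. With 3 against 3 libraries the exact permutation p cannot fall below 0.1, nor below 0.25 for paired sign changes with the replicate block, so that the ratio and the shares could not pass a threshold of p below 0.1 in either design. At most 111 counts per library stand behind Tead4, Tead3 and Lats2, which limits what differences could be seen.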
